A study of Homo sapiens with 6 samples.

Results

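The autophagy proteins and the vacuolar ATPase (V-ATPase) were followed as 1 group of genes in glioblastoma cells grown on a rigid or in a soft support. Members were all rows of the deposited gene table whose symbol names a V-ATPase subunit (ATP6V0, ATP6V1), a V-ATPase accessory protein (ATP6AP1, ATP6AP2), an ATG protein, ULK1 or ULK2, BECN1, UVRAG, RUBCN, WIPI1 or WIPI2, a protein of the LC3 or GABARAP family, or one of the cargo receptors SQSTM1, NBR1 and OPTN. This gave 76 of 58884 genes, of which 24 were V-ATPase genes (13 of the V1 sector, 9 of the V0 sector and 2 accessory), 35 were autophagy genes, 16 were processed pseudogenes caught by their names, and 1 was ATP6V1FNB, a gene named as the neighbour of ATP6V1F that is no pump subunit.

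The cells were DBTRG, an established human glioblastoma line, labelled as wild type in genotype in every library. After 5 days in culture, cells of the first group had grown as a 2D layer on a rigid dish and cells of the second within a 3D soft gel, so that stiffness and dimension changed together and cannot be told apart. RNA was sequenced in 3 libraries of each group, numbered 1 to 3. The labels do not say that libraries came from separate cultures. The p-values set the difference between groups against the spread of these libraries within groups. That spread may be technical, so the p-values may not extend to new cultures.

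Libraries held 20911340 to 25901465 counts. Of 8 glial and glioma markers, 7 had a mean of at least 1 TPM (transcripts scaled to the library's total, per length) in each group. The summed level of the 8 was 4916 to 5341 TPM on the rigid dish and 4735 to 5029 TPM in the soft gel. Most of this sum was VIM (2085 to 3046 TPM over the libraries) and CD44 (2032 to 2636 TPM). S100B, SLC1A3 and AQP4 were at 0.54 to 7.01 TPM. GFAP was below 1 CPM (counts scaled to the library's total, without length) on average in both groups. None of 5 immune or 5 endothelial markers reached a mean of 1 TPM in either group, and of 5 epithelial markers only KRT18 did. Markers differed between groups: VIM (log2 fold change -0.48), NES (-0.56), EGFR (-0.60) and KRT18 (-1.14) were lower in the soft gel, and CD44 (0.33) and ITGAM (2.49, about 1 CPM or less) were higher, by the edgeR test described below. On leaving out a library, 1 to 3 glial markers were lower and 0 to 2 higher. The part of these differences in the results was not tested. The mitochondrial share of counts was 4.55% to 5.10% on the rigid dish and 7.94% to 9.47% in the soft gel, and its part in the results was not tested. In bulk RNA, fewer cells of a type and less RNA per cell cannot be told apart. Rigid dish library 1 stood apart, for these genes mostly as the lowest and over all genes in both directions. It was the lowest of the 3 rigid dish libraries in 38 of the 54 tested members (70.4%) and the highest in 9. Over all 16098 genes tested it was the lowest in 6677 (41.5%) and the highest in 6660. Its median difference from the other rigid dish libraries was -0.20 on the log2 scale over members and 0.0058 over all genes. Counts made without it are given below.

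Macroautophagy wraps cytoplasm in a double membrane, the autophagosome, which then fuses with a lysosome. The ULK kinase complex starts the process, the BECN1 lipid kinase complex marks the site, ATG9 vesicles and ATG2 lipid transfer proteins feed the growing membrane, and a pair of ubiquitin-like conjugation systems attaches LC3 and GABARAP proteins to it, where cargo receptors bind. The V-ATPase is a rotary pump that acidifies the lysosome. Its V1 sector sits in the cytosol and splits ATP, its V0 sector lies in the membrane and carries protons, and accessory proteins help to build and place it. The pump also serves as a platform for the nutrient kinase mTORC1, and factors of the TFEB family are known to drive many of these genes through a promoter element built on the letters CACGTG.

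That element was looked for in RefSeq promoters of GRCh38.p14, from 250 bases before to 50 after the start, which were found for 49 of the 76 members. The letters CACGTG, which read the same on both strands, were in 6 of the 49 (12.2%): ATG14, ATG3, ATP6V0B, ATP6V0D1, ATP6V0E2 and ATP6V1G1. All promoters of the table held them in 7.43% of 27305 cases. The longer TCACGTGA, also the same on both strands and holding CACGTG within it, was in 3 of 49 members (6.12%), namely ATG3, ATP6V0D1 and ATP6V1G1, and in 1.04% of all promoters. The 3 stretches of 68 bases below are shown because they are the members' promoters that carry the longer element before the start, or 2 copies of the shorter one before the start; capitals mark the element.
ATP6V1G1: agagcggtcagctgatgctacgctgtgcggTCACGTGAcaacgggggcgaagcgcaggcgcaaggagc
ATP6V0D1: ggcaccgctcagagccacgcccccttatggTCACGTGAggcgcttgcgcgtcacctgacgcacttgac
ATP6V0B: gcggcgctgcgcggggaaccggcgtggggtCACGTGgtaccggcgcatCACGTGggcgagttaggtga
They lie at chr9:114587680-114587747 on the plus strand, chr16:67481180-67481247 on the minus strand and chr1:43974873-43974940 on the plus strand, and the elements begin at -59, at -60, and at -57 and -39 from the start. Of these 3 genes, ATP6V1G1 passed the test described next and ATP6V0D1 and ATP6V0B did not. Among the promoters at hand, CACGTG was in 1 of 4 V-ATPase genes that were higher in the soft gel and in 3 of 10 that were tested and did not pass. A match of letters is a description of the sequence and shows no binding.

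Each gene's counts were compared between soft gel and rigid dish with edgeR's quasi-likelihood test, fitted and adjusted (Benjamini-Hochberg, threshold 0.05) over all 16098 genes with enough counts. The log2 fold change is that of soft gel over rigid dish, with its standard error (SE), and per-library levels are CPM after library scaling. Of the 76 members, 54 could be tested. Among them 11 were higher in the soft gel, 2 were lower and 41 did not pass, which is 24.1% changed against a background of 28.6% of all genes tested. The background was 15.4% for genes higher and 13.2% for genes lower, and the members' shares were 20.4% and 3.70%. The median log2 fold change was 0.12 over the members and 0.054 over all genes.

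V-ATPase genes made up 9 of the 11 members that were higher. Of 21 tested V-ATPase genes, 9 were higher in the soft gel (42.9%, against 15.4% of all genes), 0 were lower and 12 did not pass; their median log2 fold change was 0.35. None was lower at an unadjusted p below 0.05 either, nor with DESeq2, limma-voom or limma on log2(TPM + 1), while 1, ATP6V0C, passed as lower in edgeR when rigid dish library 1 was left out. In 12 of the 21, all of the soft gel libraries lay above all of the rigid dish ones, an order found in 23.5% of all genes, and in none did every soft gel library lie below. Of 32 tested autophagy genes, 1 was higher (3.1%, against 15.4% of all genes), 2 were lower (6.25%, against 13.2%) and 29 did not pass. Their median was 0.029. In 4 of the 32 the soft gel libraries all lay above and in 9 they all lay below, an order found in 21.1% of all genes. The difference between the pump and the autophagy genes was not tested.

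**Figure D1:**
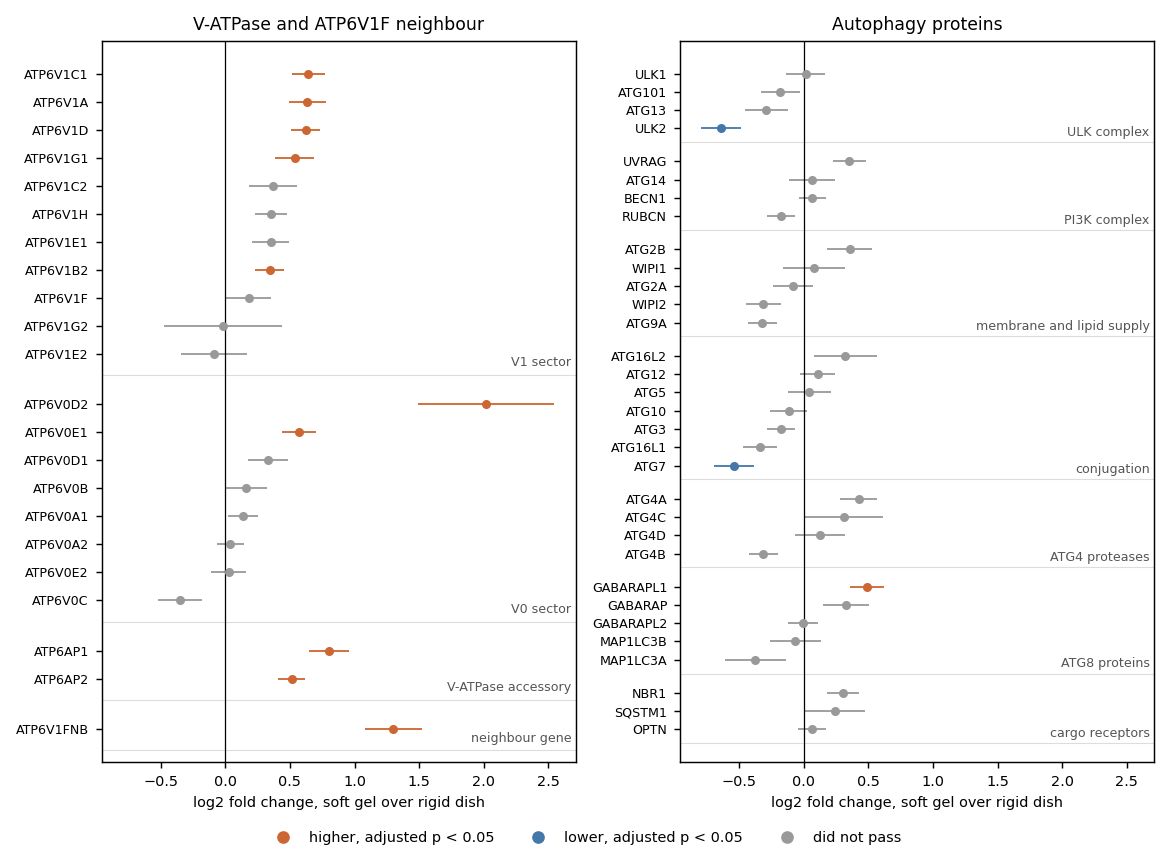
Log2 fold change of soft gel over rigid dish (x axis) for the 54 tested members, grouped by role; points are edgeR estimates, bars are 1 SE, and colour marks an adjusted p below 0.05. In the left panel 18 of the 21 V-ATPase genes lie to the right of 0, and in the right panel the autophagy genes lie on both sides, 17 to the right and 15 to the left.

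The count of 9 V-ATPase genes rested on all 6 libraries. It was 8 without rigid dish library 1, 4 without rigid dish library 2, 6 without rigid dish library 3, and 5, 4 and 7 without soft gel libraries 1, 2 and 3. All genes called numbered 4603 of 16098 tested with every library, and 6164, 2026 and 3180 without rigid dish libraries 1, 2 and 3. They numbered 1963, 1803 and 5337 without soft gel libraries 1, 2 and 3, of 16410 to 16671 tested on leaving out a library. Of the 13 members called, 4 kept their call whichever library was left out: ATP6AP1, ATP6V1C1, ATP6V1D and ATP6V1FNB.

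The V1 sector held 5 of the genes that rose, among 11 tested (45.5%, against 15.4% of all genes), and 2 to 4 on leaving out a library. A ring of A and B subunits splits ATP, D belongs to the central rotor, E and G to the outer stalk, and C and H to other peripheral parts. ATP6V1A, the catalytic A subunit (chromosome 3, 113747019 to 113812056, plus strand; here and below GENCODE release 29 on hg38), was at 87.6, 69.0 and 60.9 CPM in rigid dish libraries 1 to 3 and at 117, 117 and 104 CPM in soft gel libraries 1 to 3. The groups did not overlap, and rigid dish library 1 was the nearest to the soft gel. The log2 fold change was 0.64 (SE 0.15, edgeR adjusted p = 0.0132). The call was lost without rigid dish library 2 (adjusted p = 0.0683, edgeR), rigid dish library 3 (0.0596), soft gel library 1 (0.0588) or soft gel library 2 (0.0596), and on deposited TPM with limma (adjusted p = 0.0628 at log2(TPM + 1)), where the estimate was 0.73.

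ATP6V1B2, the B subunit that partners A in the ring (chromosome 8, 20197367 to 20226819, plus strand), was at 307, 340.2 and 360.5 CPM on the rigid dish and 389, 439.7 and 451 CPM in the soft gel. The soft gel libraries were all higher, by a narrow gap. Its log2 fold change of 0.35 (SE 0.11) was the smallest among the calls and the closest to the threshold (edgeR adjusted p = 0.0465). It missed the threshold without any one of the 6 libraries (edgeR adjusted p from 0.0621 to 0.162) and with DESeq2 (adjusted p = 0.0642). Its paralogue ATP6V1B1, known from kidney and inner ear, had 0 to 8 counts per library and was not tested.

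ATP6V1C1, the C subunit, which is known to leave the pump when V1 and V0 come apart (chromosome 8, 103021063 to 103073051, plus strand), rose from 72.2, 69.5 and 61.7 CPM to 109, 118 and 90.7 CPM. No soft gel library reached down to the rigid dish range. Its log2 fold change was 0.64 (SE 0.13, edgeR adjusted p = 0.00793), and the call was lost only with limma on TPM (adjusted p = 0.0662 at log2(TPM + 1)). ATP6V1D, the D subunit of the rotor (chromosome 14, 67294371 to 67360265, minus strand), was at 35.7, 37.1 and 38.0 CPM on the rigid dish and 55.1, 61.5 and 53.8 CPM in the soft gel. Its rigid dish libraries were the tightest of the sector's called genes. On the log2 scale the difference was 0.62 (SE 0.11, edgeR adjusted p = 0.00486), and the call held under every alternative run. Of its exon bases 6.33% are shared with EIF2S1 on the other strand, whose own log2 fold change was -0.40 and did not pass (edgeR adjusted p = 0.0554).

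ATP6V1G1, a G subunit of the stalk (chromosome 9, 114587746 to 114598373, plus strand) and the gene of the first promoter shown above, was at 62.0, 86.6 and 91.2 CPM on the rigid dish and 109, 119 and 119.6 CPM in the soft gel. Rigid dish library 1 was far below the other two, and all of the soft gel libraries lay above them. The log2 estimate of 0.54 (SE 0.15, edgeR adjusted p = 0.0279) lost its call without rigid dish library 2 (0.0715) or soft gel library 1, 2 or 3 (0.0712, 0.0987 and 0.0699). The other V1 genes tested, 6 in number, did not pass. Of these, ATP6V1H (0.35, edgeR adjusted p = 0.0550), ATP6V1E1 (0.35, 0.0894) and ATP6V1C2 (0.37, 0.161) also had no overlap between groups, the soft gel being higher, while ATP6V1F, ATP6V1E2 and ATP6V1G2 overlapped. ATP6V1E1 passed with limma on TPM, and ATP6V1H with upper quartile scaling or a stricter gene set. ATP6V1G3 had 0 counts in all 6 libraries, which allows up to 0.112 to 0.141 CPM per library at 3 counts.

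In the V0 sector 2 of 8 tested genes were higher (25.0%, against 15.4% of all genes), at a median log2 fold change of 0.15. On leaving out a library, 0 to 2 were higher. ATP6V0E1, a small membrane subunit (chromosome 5, 172983757 to 173035445, plus strand), was at 113, 131 and 154 CPM on the rigid dish and 186, 194 and 212 CPM in the soft gel. The groups did not overlap. The estimate on the log2 scale was 0.57 (SE 0.13, edgeR adjusted p = 0.0132), and the adjusted p was 0.0652 without rigid dish library 2 and 0.0526 without soft gel library 2. ATP6V0D2, the isoform of subunit d known from osteoclasts and kidney (chromosome 8, 85987323 to 86154228, plus strand), had 3, 3 and 8 counts on the rigid dish and 16, 24 and 17 counts in the soft gel. The groups did not overlap, but the levels stayed below 1 CPM throughout. The fitted log2 estimate of 2.02 (SE 0.53, edgeR adjusted p = 0.0216) rested on these few counts, and the call was lost without rigid dish library 2 (0.0978), soft gel library 1 (0.0595) or soft gel library 2 (0.0969). The summed level of the 5 immune markers also differed, at 0.48 to 1.68 TPM on the rigid dish, where AIF1 was at 0, and 1.82 to 3.10 TPM in the soft gel; its part in the ATP6V0D2 result was not tested.

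The reference genes ATP6V0C and ATP6V0D1 of this sector did not pass. ATP6V0C, the c subunit that forms the proton-carrying ring, was at 178, 233 and 276 CPM on the rigid dish and 182, 154 and 204 CPM in the soft gel. The groups overlapped through rigid dish library 1, and the estimate was negative, as it also was for ATP6V1E2 and ATP6V1G2 among the 21 tested V-ATPase genes. Its log2 fold change was -0.35 (SE 0.17, edgeR adjusted p = 0.150), and without rigid dish library 1 it was -0.51 with an adjusted p of 0.0178. Annotated readthrough transcripts on the same strand share 72.1% of its exon bases and held fewer than 0.1 CPM on average. ATP6V0D1, the common d subunit and the gene of the second promoter above, was at 60.8, 74.5 and 91.8 CPM on the rigid dish and 91.1, 90.3 and 103.5 CPM in the soft gel. The groups overlapped because of rigid dish library 3, and the log2 fold change was 0.33 (SE 0.15, edgeR adjusted p = 0.137). ATP6V0A1, ATP6V0A2, ATP6V0B and ATP6V0E2 had log2 fold changes of 0.026 to 0.16 and overlapped. ATP6V0A4 had 0 to 5 counts per library and was not tested.

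Both accessory proteins rose, where 15.4% of all genes were higher. ATP6AP1, which helps to assemble V0 (chromosome X, 154428632 to 154436516, plus strand), was at 127, 165 and 196 CPM on the rigid dish and 269, 278 and 306 CPM in the soft gel. The lowest soft gel library was well above the highest rigid dish library. Its log2 estimate of 0.80 (SE 0.16, edgeR adjusted p = 0.00686) was the largest among V-ATPase genes above 1 CPM and held under every alternative run. ATP6AP2, the (pro)renin receptor (chromosome X, 40579372 to 40606848, plus strand), was at 93.3, 101 and 89.3 CPM on the rigid dish and 138, 139 and 128 CPM in the soft gel. The libraries of each group lay close together. Soft gel over rigid dish, the log2 change was 0.51 (SE 0.10, edgeR adjusted p = 0.00842), with an adjusted p of 0.0522 without rigid dish library 3.

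ATP6V1FNB (chromosome 7, 128866308 to 128872044, plus strand) begins 464 bases after the end of ATP6V1F on the same strand. It was at 2.06, 2.20 and 2.69 CPM on the rigid dish and 5.80, 4.91 and 6.38 CPM in the soft gel, and the groups did not overlap. The log2 fold change was 1.30 (SE 0.22, edgeR adjusted p = 0.00399), while ATP6V1F itself was at 95.5, 121 and 158 CPM and 135, 135 and 156 CPM, with a log2 estimate of 0.18 (SE 0.17, edgeR adjusted p = 0.451). Of the exon bases of ATP6V1F 23.7% are shared with KCP on the other strand, which rose from 0.708 to 6.68 CPM on average (log2 fold change 3.22, edgeR adjusted p = 0.000398). The part of KCP in either result was not tested.

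**Figure D2:**
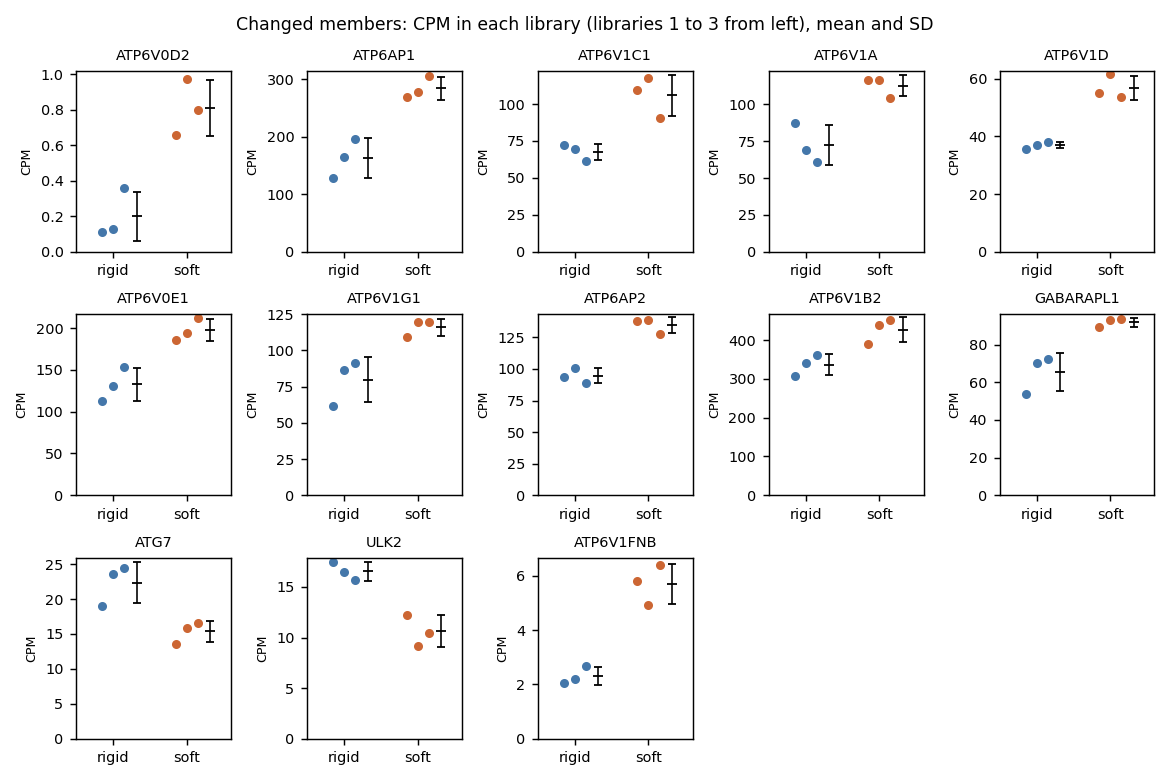
CPM (y axis, from 0) of the 13 members that passed the test in each of the 3 rigid dish libraries (blue) and the 3 soft gel libraries (orange), libraries 1 to 3 from left to right; the black mark and bar are the mean and SD. In none of the 13 panels do the groups overlap, and ATP6V0D2 stays below 1 CPM.

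Per length, the pump's subunits covered a wide range of levels. The mean TPM on the rigid dish was 385 for ATP6V1F, 352 for ATP6V0C and 270.5 for ATP6V0B, against 22.2 for ATP6V1A and 9.04 for ATP6V0A2. Sums over the sectors were added after the values were seen. The summed V1 level was 918, 980.5 and 1031 TPM on the rigid dish and 1285, 1303 and 1323 TPM in the soft gel, a ratio of means of 1.34. The soft gel libraries were all higher, and the two-sided exact permutation test gave p = 0.1, the smallest that 3 against 3 libraries allow. The summed V0 level was 998, 1037 and 1159 TPM against 1205, 1083 and 1288 TPM, a ratio of 1.12, and the groups overlapped (exact permutation p = 0.2). V1 genes thus made up 47.9%, 48.6% and 47.1% of the V1 and V0 sum on the rigid dish and 51.6%, 54.6% and 50.7% in the soft gel (exact permutation p = 0.1). The symbol rule misses TCIRG1, the V0 a3 subunit. With it added, the mean V1 share was 43.8% on the rigid dish and 47.9% in the soft gel. RNASEK, known as the V0 f subunit, is missed too and was in none of these sums. It was at 490.5, 561.6 and 651.3 TPM on the rigid dish and 850.8, 911.2 and 940.3 TPM in the soft gel. The larger rise of V1 thus holds only for the subunits summed, and a share with RNASEK in V0 was not tested.

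**Figure D3:**
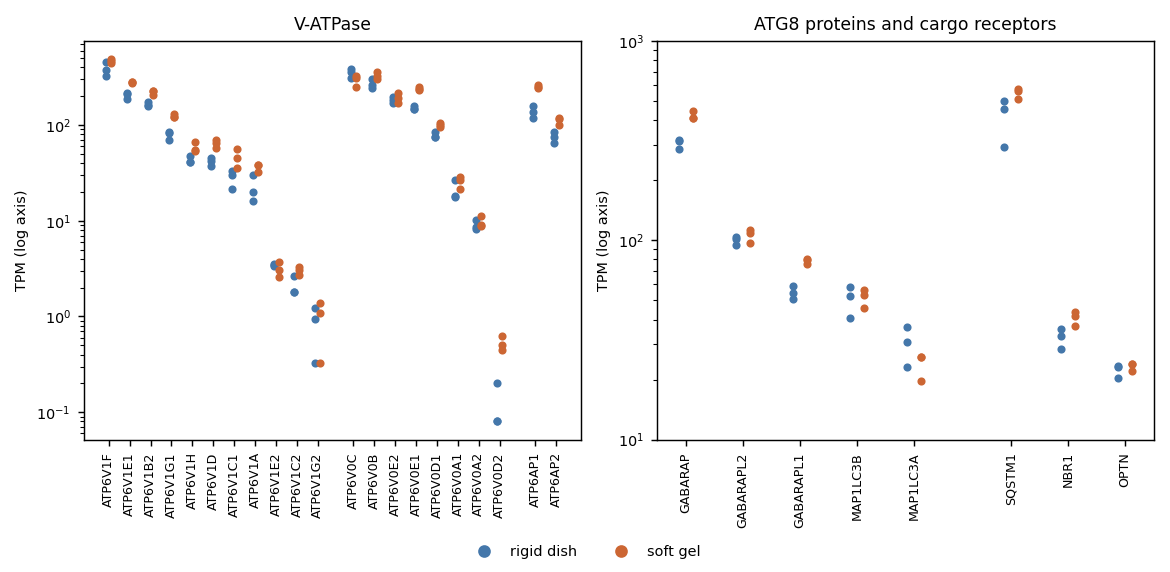
TPM (log axis) of the tested V-ATPase genes (left) and of the LC3 and GABARAP proteins and cargo receptors (right), with 1 point for each rigid dish (blue) and soft gel (orange) library. Levels within the pump run from below 1 TPM for ATP6V0D2 to above 300 TPM for ATP6V1F, and SQSTM1 in rigid dish library 1 lies below its other 5 libraries.

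Several subunits are encoded by paralogues, and the share of each in the summed TPM of its family was compared over the libraries (36 shares in 15 families; the smallest exact permutation p is 0.1, and 0.277 after Benjamini-Hochberg adjustment, so no share could pass). In subunit e, ATP6V0E1 held 44.4%, 46.4% and 45.1% of it on the rigid dish and 54.9%, 58.1% and 53.9% in the soft gel, from 45.3% ± 1.00 to 55.6% ± 2.20 (SD, n = 3 each, exact permutation p = 0.1), the remainder being ATP6V0E2. ATP6V0E2 held the larger share in all of the rigid dish libraries and ATP6V0E1 in all of the soft gel ones. For subunit a, ATP6V0A1, ATP6V0A2 and ATP6V0A4 were all minor beside TCIRG1, which held 86.2% ± 1.27 on the rigid dish and 86.5% ± 1.31 in the soft gel (SD, n = 3 each, exact permutation p = 0.6). ATP6V1B2, ATP6V1E1, ATP6V1G1 and ATP6V0D1 each held over 98% of their families in every library, and ATP6V1C1 over 92%.

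The autophagy genes are taken in the order in which they act. In the ULK complex 1 of 4 tested genes changed (25%, against 28.6% of all genes). ULK2, a starting kinase (chromosome 17, 19770829 to 19867936, minus strand), was at 17.5, 16.5 and 15.7 CPM on the rigid dish and 12.3, 9.22 and 10.5 CPM in the soft gel. The soft gel libraries were all lower. Its log2 fold change was -0.64 (SE 0.15, edgeR adjusted p = 0.0168); the call was lost without rigid dish library 2 (0.0645) or soft gel library 2 (0.0735), and with limma on log2(TPM + 1) (adjusted p = 0.198). ULK1, the more abundant kinase, was at 47.2, 66.6 and 65.6 CPM and at 66.2, 55.0 and 60.1 CPM, overlapping, and ULK1's log2 estimate of 0.017 (SE 0.15, edgeR adjusted p = 0.944) turned to -0.14 without rigid dish library 1. In TPM, ULK2 made up 22.0% ± 3.83 of the pair on the rigid dish and 14.0% ± 2.57 in the soft gel (SD, n = 3 each, exact permutation p = 0.1). The partners ATG13 (-0.29) and ATG101 (-0.18) overlapped between groups and did not pass.

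None of the 4 tested genes of the BECN1 lipid kinase complex passed in edgeR as run here, or in DESeq2, limma-voom or limma on TPM (1, UVRAG, at an unadjusted p below 0.05), at a median log2 fold change of 0.067. BECN1, its scaffold, was at 59.5, 67.2 and 65.7 CPM on the rigid dish and 65.9, 68.4 and 67.1 CPM in the soft gel. The groups overlapped within a narrow range, and BECN1's log2 fold change was 0.066 (SE 0.10, edgeR adjusted p = 0.659). Of the exon bases of BECN1 17.1% overlap genes on the other strand, of which PSME3 fell from 243 to 182 CPM on average (edgeR adjusted p = 0.0324). UVRAG, which directs the complex to later steps, had every soft gel library above the rigid dish (0.35, edgeR adjusted p = 0.0594) and passed in edgeR with a filter of 1 CPM in 3 libraries, protein-coding genes only or upper quartile scaling, and RUBCN, an inhibitor of that form, had every soft gel library below (-0.17, edgeR adjusted p = 0.256).

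Membrane supply likewise held no edgeR call among 5 tested genes; at an unadjusted p below 0.05, ATG9A and WIPI2 were lower, and DESeq2 called ATG9A. ATG9A, the lipid scramblase of the seed vesicles, was at 68.5, 76.1 and 80.5 CPM on the rigid dish and 64.4, 57.6 and 58.6 CPM in the soft gel. All soft gel libraries were lower, and the log2 fold change was -0.32 (SE 0.11, edgeR adjusted p = 0.0607; 0.0250 without rigid dish library 1; 0.0273 with DESeq2). A readthrough annotation on the same strand, AC068946.2, shares 38.8% of its exon bases and was at 17.4 and 22.4 CPM on average. WIPI2, which recruits the conjugation machinery, also had its soft gel libraries all below (-0.31, edgeR adjusted p = 0.103). The lipid transfer proteins ATG2A (-0.081) and ATG2B (0.36) overlapped, as did WIPI1 (0.081).

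Conjugation had 1 call among 7 tested genes (14.3%, against 28.6% of all genes) and a median of -0.12. In 4 of the 7 the soft gel libraries all lay below, as in 21.1% of all genes. ATG7, the E1-like enzyme of both conjugation systems (chromosome 3, 11272309 to 11557665, plus strand), was at 18.9, 23.6 and 24.5 CPM on the rigid dish and 13.6, 15.9 and 16.6 CPM in the soft gel. The highest soft gel library was below the lowest rigid dish library. On the log2 scale the difference was -0.54 (SE 0.15, edgeR adjusted p = 0.0289), and the adjusted p rose to 0.109 without rigid dish library 2, 0.0578 without rigid dish library 3, 0.122 without soft gel library 1 and 0.0830 without soft gel library 2. Of its exon bases 18.1% overlap VGLL4 on the other strand, whose log2 fold change was -0.10 (edgeR adjusted p = 0.575).

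ATG16L1, which with ATG12 and ATG5 places LC3 on the membrane, was at 41.2, 50.01 and 50.5 CPM on the rigid dish and 38.3, 33.3 and 40.6 CPM in the soft gel. The soft gel libraries were all lower, with a log2 fold change of -0.34 (SE 0.13) that did not pass (edgeR adjusted p = 0.0806); it passed without rigid dish library 1 (0.0242) and without soft gel library 3 (0.0402), and on log2(TPM + 1) limma gave -0.52 with an adjusted p of 0.0324. ATG16L1 made up 85.4% ± 5.99 of the ATG16L pair in TPM on the rigid dish and 74.7% ± 2.17 in the soft gel (SD, n = 3 each, exact permutation p = 0.1), the remainder being ATG16L2. ATG5 was at 29.2, 31.1 and 26.9 CPM on the rigid dish and 34.3, 32.7 and 22.8 CPM in the soft gel. These overlapped, and soft gel library 3 was the lowest of the 6 (log2 fold change 0.042, SE 0.17, edgeR adjusted p = 0.867). The E2-like enzymes ATG3 (-0.18) and ATG10 (-0.12) had all soft gel libraries below, while ATG12 (0.11) overlapped.

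The ATG4 proteases, which trim LC3 and GABARAP proteins and release them from membranes, pointed in different directions and did not pass. ATG4A had its soft gel libraries all above (0.43, edgeR adjusted p = 0.0539) and ATG4B all below (-0.31, edgeR adjusted p = 0.0639), and without rigid dish library 1 both passed. ATG4B also passed with DESeq2 and ATG4A with upper quartile scaling. The share of ATG4B in the family's TPM was 32.4% ± 1.77 on the rigid dish and 24.5% ± 1.87 in the soft gel (SD, n = 3 each, exact permutation p = 0.1). ATG4C (0.31) and ATG4D (0.13) overlapped.

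Among the LC3 and GABARAP proteins, 1 of 5 tested genes rose (20%, against 15.4% of all genes). GABARAPL1 (chromosome 12, 10212458 to 10223130, plus strand) was at 53.9, 70.0 and 72.4 CPM on the rigid dish and 89.2, 92.8 and 93.5 CPM in the soft gel. Rigid dish library 1 was again the lowest, and the soft gel libraries were all higher. The estimate on the log2 scale was 0.49 (SE 0.13, edgeR adjusted p = 0.0239), with an adjusted p of 0.0701 without rigid dish library 2 and of 0.0756, 0.0844 and 0.0582 without soft gel libraries 1, 2 and 3. MAP1LC3B, the LC3 form most used as a marker of autophagosomes, was at 57.6, 95.3 and 94.0 CPM and at 66.9, 80.5 and 88.7 CPM. The groups overlapped over their whole range, and the estimate was -0.064 (SE 0.20, edgeR adjusted p = 0.826). GABARAP (0.33), MAP1LC3A (-0.37) and GABARAPL2 (-0.0063) also overlapped, and GABARAP passed with limma on TPM. GABARAP was the most abundant of these per length, at a mean of 307 TPM on the rigid dish and 422 TPM in the soft gel, although other annotated transcripts share 55.7% of its exon bases. MAP1LC3B2 had 1 to 26 counts per library and MAP1LC3C 0 to 2, and neither was tested; nor was ATG9B, at 2 to 8 counts.

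**Figure D4:**
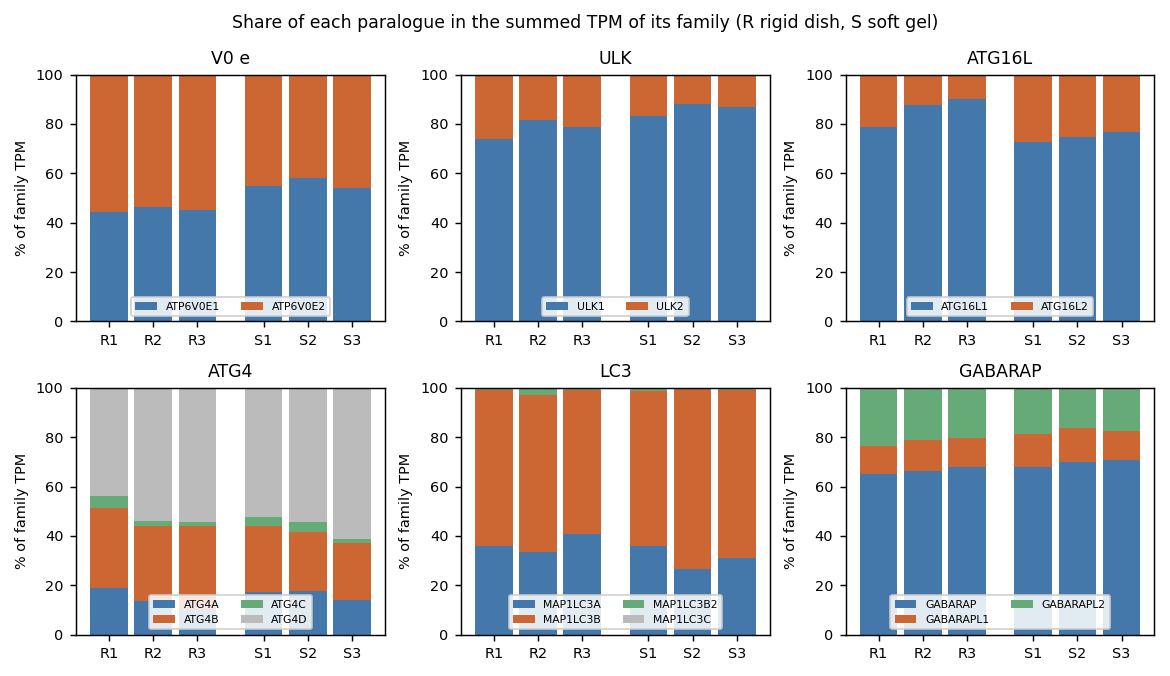
Stacked bars of the share (%) of each paralogue in the summed TPM of its family, for 6 families, with rigid dish libraries R1 to R3 and soft gel libraries S1 to S3. ATP6V0E1 goes from 44.4% to 46.4% on the rigid dish to 53.9% to 58.1% in the soft gel, and the shares of ULK2, ATG16L1 and ATG4B are smaller in all of the soft gel libraries.

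No cargo receptor of the 3 passed in edgeR, DESeq2, limma-voom or limma on TPM, and 1, NBR1, was higher at an unadjusted p below 0.05. SQSTM1 (p62), which brings ubiquitin-tagged cargo to LC3, was at 409, 743 and 860 CPM on the rigid dish and 715, 816 and 849 CPM in the soft gel. Rigid dish library 1 lay far below the other 5, which overlapped. Soft gel over rigid dish, the log2 change was 0.24 (SE 0.23, edgeR adjusted p = 0.452) and -0.021 without rigid dish library 1. Of its exon bases 22.0% overlap genes on the other strand, of which MRNIP rose from 24.1 to 44.4 CPM on average (edgeR adjusted p = 0.00280). NBR1, a receptor of related build, was at 88.6, 115 and 107 CPM on the rigid dish and 127, 136 and 121 CPM in the soft gel; the soft gel libraries were all above, and the log2 fold change was 0.30 (SE 0.13, edgeR adjusted p = 0.0934). OPTN, a receptor for damaged mitochondria and bacteria, was at 41.0, 46.3 and 43.7 CPM and at 45.5, 47.8 and 43.7 CPM, overlapping, with an estimate of 0.066 (SE 0.11, edgeR adjusted p = 0.675).

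The calls among autophagy genes depended on the libraries used, as did those among all genes. Without rigid dish library 1, 8 of them were lower and 3 higher in the soft gel, in place of 2 and 1. The genes gained were ATG13, ATG16L1, ATG4B, ATG9A, MAP1LC3A and WIPI2 among the lower, and ATG16L2 and ATG4A among the higher. Without rigid dish library 2 or soft gel library 2, 0 autophagy genes passed in either direction, and without soft gel library 1 only 1 did, lower. All genes that passed numbered 6164 of 16566 tested without rigid dish library 1, in place of 4603 of 16098. They numbered 2026 of 16659 without rigid dish library 2. Without soft gel library 1 or 2 they numbered 1963 of 16467 or 1803 of 16410.

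Of the 16 pseudogenes, 15 had 0 counts in all 6 libraries, and ATP6V0CP1 had 3 counts in soft gel library 1 alone. The parent genes could share reads with these copies.

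Other genes of the pathway were counted in 6 lists. The list of factors that assemble, place or regulate the V-ATPase also held TCIRG1 and RNASEK, V0 subunits that the symbol rule misses. Of its 16 tested genes, 5, RNASEK among them, were higher and 1 lower (31.2% and 6.25%, against 15.4% and 13.2% of all genes). The median log2 fold change was 0.38. On leaving out a library, 2 to 6 were higher and 1 lower. OSTM1, the partner of the lysosomal chloride carrier CLCN7, went from 75.5 ± 5.01 to 144 ± 21.9 CPM (SD, n = 3 each; log2 fold change 0.93, edgeR adjusted p = 0.00219), and DMXL1, a part of the complex that joins V1 to V0, from 45.2 ± 5.96 to 85.9 ± 28.0 CPM (0.93, edgeR adjusted p = 0.0169). The DMXL1 call was lost without rigid dish library 2 or 3 or soft gel library 1 or 2 (edgeR adjusted p from 0.0610 to 0.0735). MEAK7 fell from 18.6 ± 1.89 to 10.7 ± 1.51 CPM (-0.80, edgeR adjusted p = 0.00777). TCIRG1 was at 276 ± 14.8 and 329 ± 38.6 CPM and did not pass (0.25, edgeR adjusted p = 0.129).

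The list of the TFEB family and of mTORC1 nutrient control held 10 higher and 1 lower of 29 tested (34.5% and 3.45%, against 15.4% and 13.2% of all genes), with a median of 0.30. FNIP2, a partner of folliculin, went from 15.7 ± 2.24 to 30.8 ± 4.55 CPM (0.97, edgeR adjusted p = 0.00378). Among the transcription factors, MITF rose from 4.19 ± 1.53 to 7.81 ± 1.25 CPM (0.89, edgeR adjusted p = 0.0364) and TFE3 fell from 105 ± 22.4 to 70.1 ± 5.26 CPM (-0.58, edgeR adjusted p = 0.0275). TFEB, named after its values were seen, was at 4.84 ± 1.79 and 6.13 ± 0.479 CPM and did not pass (0.35, edgeR adjusted p = 0.350). MITF and TFE3 both lost their calls without rigid dish library 2 or 3 or soft gel library 1 or 2 (edgeR adjusted p from 0.113 to 0.125 and from 0.0561 to 0.113). On leaving out a library, the list counted 4 to 11 higher and 0 to 4 lower.

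Receptors for other cargo counted 4 higher and 1 lower of 17 (23.5% and 5.88%, against 15.4% and 13.2% of all genes), with a median of 0.23. On leaving out a library they counted 2 to 5 higher and 0 to 3 lower, and DESeq2 called 5 higher and 3 lower. CCPG1 and RETREG1, receptors for the endoplasmic reticulum, rose from 43.3 ± 14.8 to 117 ± 40.8 CPM (SD, n = 3 each; 1.43, edgeR adjusted p = 0.0103; 0.0521 without soft gel library 2) and from 17.3 ± 3.48 to 35.8 ± 4.70 CPM (1.05, edgeR adjusted p = 0.00393). PHB2, a receptor of the inner mitochondrial membrane, fell from 314 ± 68.8 to 187 ± 28.5 CPM (-0.75, edgeR adjusted p = 0.0150), a call lost without rigid dish library 2 or soft gel library 1 or 2 (0.0595 to 0.0735). Partners of the ULK and BECN1 complexes counted 2 higher and 0 lower of 8 (25.0% higher, against 15.4% of all genes; 4 and 0 at an unadjusted p below 0.05, 2 and 0 with DESeq2): RB1CC1, the scaffold of the ULK complex (0.88, edgeR adjusted p = 0.0273), at 34.3 ± 4.01 and 62.9 ± 22.0 CPM (SD, n = 3 each), and the kinase TBK1 (0.86, edgeR adjusted p = 0.0290), at 23.7 ± 5.64 and 43.1 ± 12.9 CPM. Both overlapped between groups. The list counted 0 to 3 higher on leaving out a library; RB1CC1 and TBK1 each failed without rigid dish library 2 or 3 or soft gel library 1 or 2 (0.0622 to 0.124).

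Fusion factors counted 1 higher, PLEKHM1 (0.75, edgeR adjusted p = 0.0152; 0.0628 without rigid dish library 2 and 0.0657 without soft gel library 2), and 0 lower of 13 (3 and 1 at an unadjusted p below 0.05, 1 and 0 with DESeq2), with a median of 0.062. Lipid transfer and scaffold proteins counted 1 higher, TRAPPC8 (0.54, edgeR adjusted p = 0.0488, groups overlapping), and 2 lower, TECPR1 (-0.42, edgeR adjusted p = 0.0406) and WDR45B (-0.39, edgeR adjusted p = 0.0260), of 9. Beside the counts of both lists, 15.4% of all genes were higher and 13.2% lower. TRAPPC8 and TECPR1 lost their calls without rigid dish library 2 or 3 or soft gel library 1 or 2 (edgeR adjusted p from 0.0784 to 0.187), and WDR45B without rigid dish library 2 or soft gel library 1 or 2 (0.105 to 0.115).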

How the data were processed

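RNA-seq of 6 libraries was read from 1 gene table of the whole series. The authors deposited estimated counts, TPM, a log2 fold change and an adjusted p-value for each gene; per the submitters' processing notes, HISAT2, HTSeq and the build hg38 were used, with no strand setting named. Between 11.3% and 13.0% of genes had counts with decimals, so counts were rounded. Here edgeR 4.0.16 (R 4.3.3) was run with filterByExpr (minimum count 10), TMM scaling and the quasi-likelihood test, with Benjamini-Hochberg adjustment over all genes tested. TPM was used for levels between genes and for paralogue shares, tested by exact permutation (scipy 1.17.1). Alternatives used DESeq2 1.42.0 and limma 3.58.1, other scalings and filters, and leaving out each library. On simulated data for this comparison (15801 genes), the test recovered 21% of 1.5-fold and 80% of 2-fold changes. Far fewer genes were changed in the simulation than passed here, which makes the adjusted threshold stricter there. These shares therefore do not give the recovery in these data, where changes near 1.5-fold may still be missed. At 3 counts a library resolves 0.112 to 0.141 CPM, counting error only.

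Members, gene lists and markers were chosen with earlier results of these data known. Values are given for members that passed, for 16 reference members, and for up to 2 higher and 2 lower genes of each list at a mean of 5 CPM or more.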

Additional observations from a re-analysis of the deposited data

How the results depend on the processing

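All genes called numbered 4603, and 2287 and 2313 with limma on log2(TPM + 0.1) and log2(TPM + 1); leaving out a library gave 1803 to 6164. V-ATPase genes higher numbered 4 to 8 on leaving out a library and 8 to 12 otherwise. V-ATPase genes lower numbered 1 with no low-count filter and 1 with the replicate block (ATP6V0C both times), and 0 to 1 on leaving out a library. Autophagy genes higher numbered 3 with a filter of 1 CPM in 3 libraries, with protein-coding genes only or with upper quartile factors, and 2 with either limma fit on TPM; autophagy genes lower numbered 4 with DESeq2 or its size factors; leaving out a library gave 0 to 3 and 0 to 8.

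The labels do not say whether the library numbers pair the samples, and the main test did not pair them. Deviations of same-numbered libraries correlated at 0.217, 0.00910 and 0.307, and those of differently numbered ones at -0.295 to 0.137. Whether the numbers mark a pairing was not tested. With the replicate number as a block, 6442 genes, 12 higher and 1 lower V-ATPase gene and 6 higher and 5 lower autophagy genes passed.

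Estimates near 0 turned. ATG5 was -0.00373 with DESeq2, -0.00379 with its size factors and -0.0241 with no low-count filter, and -0.0779 to 0.144 on leaving out a library. ULK1 was -0.0258, -0.0258 and -0.0452 under these, and -0.135 to 0.0944. MAP1LC3B was 0.0474 and 0.0463 with limma on log2(TPM + 0.1) and log2(TPM + 1), and -0.274 to 0.0476. OPTN ranged from -0.00200 to 0.103 and SQSTM1 from -0.0212 to 0.393 on leaving out a library. The difference in the ATG2B share was -0.84 percentage points, 5.22 from CPM, and -4.57 to 3.29 on leaving out a library. The cause was not tested. DESeq2 size factors moved the median of all genes by -0.043 and upper quartile factors by 0.032. Isoforms at low counts are limited by depth.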

Other observations

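In the authors' deposited table, 10 of the 54 tested members were higher and 4 lower at an adjusted p below 0.05, and 12 of these 14 also passed here. That table adds ATG4B and ATG9A among the lower and lacks ATP6V1B2 among the higher.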
